A study of Mus musculus with 61 samples.

Results

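Lin28a, L1td1 and Dicer1 encode proteins that act on RNA, and all were examined here at day 3 of transcription factor-induced reprogramming of mouse fibroblasts. Members were taken by symbol from a deposited table that lists regulatory regions of embryonic stem (ES) cells of the mouse for 5154 genes. They comprise 3 genes, 3 of 5513 promoters and 16 of 14265 enhancers. To these were added the Sox2 binding positions within 200 kb of the 3 start sites, 19 of 52888 in the 3 deposited lists.

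Lin28a is an RNA-binding protein that holds back the maturation of the microRNA let-7, and human LIN28 has been used as a reprogramming factor beside OCT4, SOX2 and NANOG. L1td1 encodes an RNA-binding protein of ES cells and early embryos that derives from the first open reading frame of a LINE-1 transposon, and the human protein binds LIN28A. Dicer1 encodes the RNase that cuts precursor hairpins, let-7 included, into mature microRNAs. In ES cells Lin28a and L1td1 are highly expressed, whereas Dicer1 is used in nearly all cell types. Sox2 is a transcription factor of ES cells and is supplied by the reprogramming cassette itself.

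All cells were Black6-129X1/SvJ mouse embryonic fibroblasts (MEFs) from E13.5 embryos that carried Col1a1::tetOP-OKSM, a doxycycline-responsive cassette of Oct4, Klf4, Sox2 and Myc, together with R26-M2rtTA, the activator that responds to the drug. Every group, the Renilla control included, received 2 µg/ml doxycycline in serum/LIF medium with ascorbate and was collected at day 3. For Sox2 ChIP-seq the groups were Chaf1a.166 knockdown, Chaf1a.2122 knockdown and Renilla control knockdown, with 1 immunoprecipitate and 1 input library each. Chaf1a is the largest subunit of CAF-1, a chaperone that places histones on newly copied DNA, and Renilla luciferase is absent from mouse cells. For Sono-seq, in which fixed chromatin is sheared and open regions yield more DNA, the groups were CAF-1 knockdown and Renilla control knockdown with 3 libraries each, and the labels do not say which hairpin the CAF-1 cells carried. Each region has a single deposited value for each condition, so no value has a replicate error and no difference between conditions was tested. The other 49 of 61 samples were not analysed here, so neither the knockdown nor the fibroblast identity of the cells was checked. Each library is a bulk population, in which more cells with a bound or open region and more signal per cell cannot be told apart.

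The 250 bases before each start site are printed because the Sono-seq value of each promoter is placed at its start site; how many bases that value covers is not stated. They are RefSeq sequences of GRCm38.p6, whereas all positions in the results below are mm9. All 3 genes were matched. The stretches are chr4:134018817-134019066 on the minus strand (Lin28a), chr4:98726504-98726753 on the plus strand (L1td1) and chr12:104751953-104752202 on the minus strand (Dicer1). Capitals mark a match to the Sox core letters ACAATG or ACAAAG or to the octamer ATGCAAAT on either strand, and lower case marks the rest.
Lin28a: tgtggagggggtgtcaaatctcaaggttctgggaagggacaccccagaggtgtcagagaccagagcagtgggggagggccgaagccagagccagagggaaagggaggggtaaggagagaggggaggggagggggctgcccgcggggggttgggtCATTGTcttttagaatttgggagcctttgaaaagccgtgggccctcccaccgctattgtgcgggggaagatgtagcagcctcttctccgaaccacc
L1td1: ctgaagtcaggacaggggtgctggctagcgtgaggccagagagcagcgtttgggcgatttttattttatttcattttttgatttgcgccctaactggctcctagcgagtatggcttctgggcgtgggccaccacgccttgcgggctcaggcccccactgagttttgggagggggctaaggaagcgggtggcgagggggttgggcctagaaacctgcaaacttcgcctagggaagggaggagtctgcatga
Dicer1: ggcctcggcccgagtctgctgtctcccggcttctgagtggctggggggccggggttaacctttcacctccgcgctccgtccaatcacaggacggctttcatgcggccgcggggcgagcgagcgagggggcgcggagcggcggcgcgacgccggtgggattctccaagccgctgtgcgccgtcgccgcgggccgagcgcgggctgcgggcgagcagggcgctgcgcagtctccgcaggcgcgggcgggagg

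Lin28a held 1 match, which reads CATTGT and is ACAATG on the other strand, from 96 to 91 bases before the start. No match lay in the windows of L1td1 and Dicer1. Of 32851 RefSeq promoter windows of the same length, 10.7% held ACAATG, 16.5% ACAAAG and 1.60% the octamer, on either strand. The Dicer1 window was the richest of the 3 in G and C, at 76.0%, with 39 CG dinucleotides, against a median of 52.4% and 6 over all windows. Lin28a had 61.2% and 7 CG dinucleotides, and L1td1 had 57.6% and 11.

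The 3 genes differed in the Sox2 positions around them. L1td1 had a position close behind its start site with each hairpin, Dicer1 had a single site seen with both Chaf1a hairpins and not with Renilla, and Lin28a had none within 200 kb in any list. Of all genes in the table, 28.2% had a Chaf1a.166 position within 10 kb of the start site, 33.1% a Chaf1a.2122 position, 29.1% a Renilla position and 20.6% one in every list. L1td1 was the one member that met this mark. Lin28a and Dicer1 had none within 10 kb in any list, like 59.0% of all genes. Since Sox2 read depth is unknown, a missing position means only that none passed the threshold of that list.

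**Figure D1:**
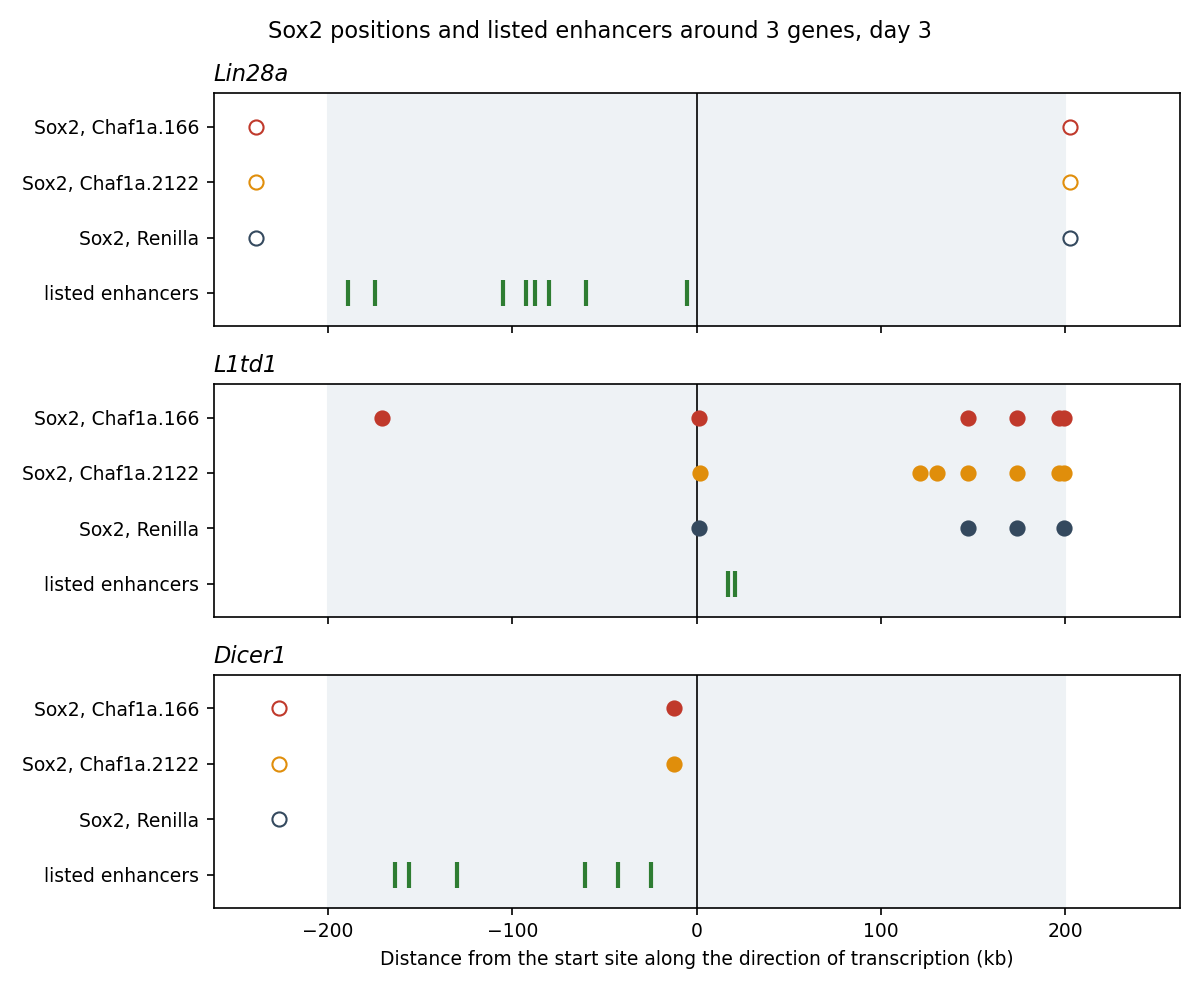
Sox2 positions of the 3 lists and listed enhancers around each gene, by distance from the start site along the direction of transcription in kb. Filled points lie within 200 kb (shaded), open points are the first positions outside it where these fall on the axis, and green bars are enhancers; L1td1 has a point beside its start in every row, Dicer1 has 1 point in each Chaf1a row, and Lin28a has no point within 200 kb.

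At L1td1, on chromosome 4 with its start at 98393444, the positions nearest to the start were all downstream. They lay 1473 bp away with Chaf1a.166, 1525 bp with Chaf1a.2122 and 1485 bp with Renilla. They span 52 bp, at 98394917, 98394969 and 98394929. Whether they fall in an exon or an intron was not examined, as no mm9 gene model was used here. By score, where rank 1 is the best, the position ranked 1066 of 15888 in the Chaf1a.166 list, 2549 of 19319 in the Chaf1a.2122 list and 3056 of 17681 in the Renilla list. Its score thus stood above most positions of each list, at percentiles 93.3, 86.8 and 82.7. The authors' enrichment over input at this site was 18.0 (Chaf1a.166), 13.7 (Chaf1a.2122) and 14.9 (Renilla), with lower bounds of 6.47, 4.87 and 5.27, and the medians over all positions of these lists were 8.37, 7.46 and 8.23. These values describe a position within its own list and are not compared between lists.

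The rest of the L1td1 neighbourhood held lower-scoring sites, 6 of 7 of them downstream and toward Usp1, which encodes a deubiquitinase of the DNA damage response. In all, 6 Chaf1a.166, 7 Chaf1a.2122 and 4 Renilla positions lay within 200 kb, with exact 95% Poisson intervals of 2.20 to 13.06, 2.81 to 14.42 and 1.09 to 10.24 that cover counting error only. The medians over all genes were 4, 5 and 4. Joined where neighbours lay within 200 bp, these 17 positions formed 8 sites, against a median of 6 sites per gene. All 3 lists held 4 of them, at about 1.5, 147.1, 173.9 and 199.2 kb downstream. Where the lower bound of enrichment had to reach 2, the site beside the start was the 1 that all 3 lists still held.

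None of the L1td1 sites was found with Renilla alone, and 49.9% of all genes had such a site within 200 kb. Both Chaf1a lists and not Renilla held a site at 196.6 kb, beside the start site of Usp1 (434 bp away with Chaf1a.166, 408 bp with Chaf1a.2122), while the nearest Renilla position was 2127 bp from that start. Chaf1a.166 alone held a position 170.7 kb upstream, at percentile 59.6 of its list by score. Its enrichment was 35.4 with a lower bound of 6.16, beside 18.0 and 6.47 for the Chaf1a.166 position near the start. Chaf1a.2122 alone held 2 positions, at 121.0 and 130.3 kb, at percentiles 6.1 and 21.2. Sites of these kinds were common within 200 kb. Of all genes, 37.6% had one of both Chaf1a lists without Renilla, 46.7% one of Chaf1a.166 alone and 65.2% one of Chaf1a.2122 alone. The site at 147.1 kb lay 124 bp from a listed enhancer that the table assigns to Usp1 and not to L1td1, with Sono-seq values of 0.126 in CAF-1 and 0.110 in Renilla cells. No L1td1 site lay nearer than 15231 bp to one of its own 2 enhancers.

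At Dicer1, on chromosome 12 with its start at 105990162, the Chaf1a.166 position lay at 106002296, 12134 bp upstream, and the Chaf1a.2122 position at 106002253, 12091 bp upstream. These 2 positions were 43 bp apart and were the only ones within 200 kb. The Renilla list had none there, and its position nearest to the start was 226.6 kb upstream. Both Chaf1a lists also held that farther site, at percentiles 86.5 (Chaf1a.166) and 93.3 (Chaf1a.2122), beside 89.6 in Renilla. Of all genes, 37.6% had a site of both Chaf1a lists without Renilla within 200 kb, and 1.46% had positions of both Chaf1a lists and none of Renilla. The site was known from earlier results when the genes were chosen, so the pattern is a description.

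Within its own list, each position of the Dicer1 site had the following place. In the Chaf1a.166 list it had a score of 37.9, rank 3643 of 15888 and percentile 77.1, with an enrichment of 15.6 and a lower bound of 4.41. In the Chaf1a.2122 list it had a score of 13.1, rank 17780 of 19319 and percentile 8.0, with an enrichment of 3.07 and a lower bound of 1.01. The lowest score deposited in the Chaf1a.2122 list was 12.4, so this position passed the threshold narrowly. Among the 1689 sites of both Chaf1a lists without Renilla, the medians were percentiles 27.8 (Chaf1a.166) and 33.9 (Chaf1a.2122). The lists differ in length and lowest score, so these places are not compared between hairpins. With a lower bound of at least 2, or with each list cut to its best 15888 positions, the Chaf1a.2122 position dropped out and the count of such sites at Dicer1 became 0.

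**Figure D2:**
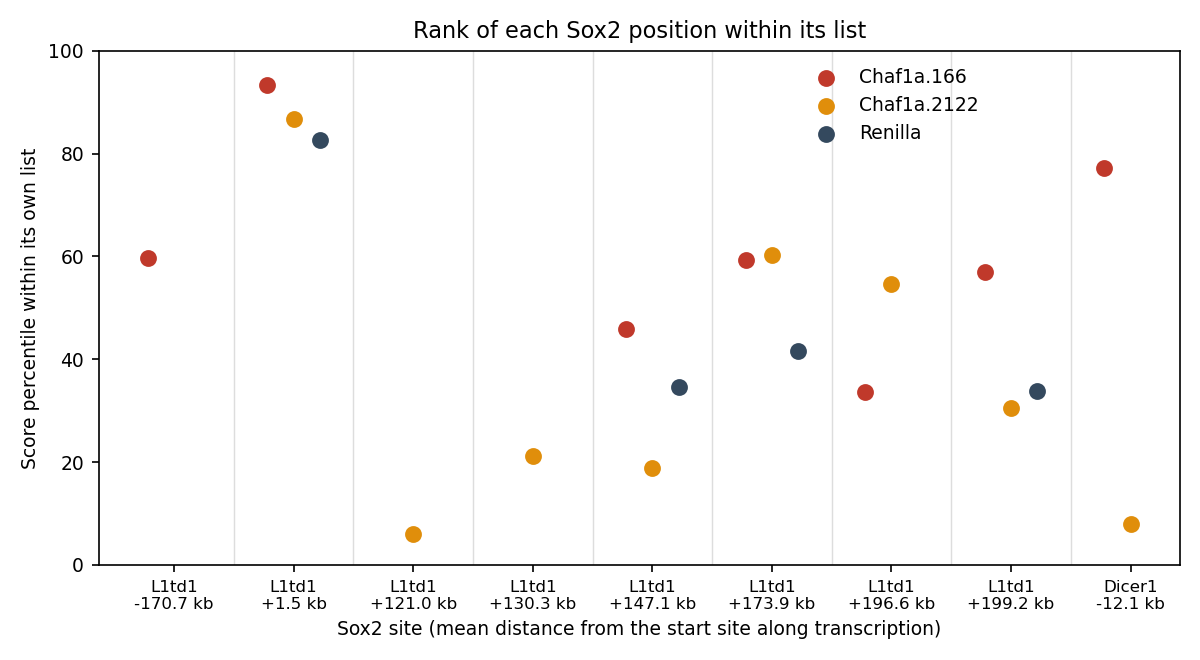
Score percentile of each Sox2 position within its own list (0 to 100, higher is better), for the 8 sites of L1td1 and the 1 site of Dicer1, ordered by distance within each gene. The site 1.5 kb behind the L1td1 start is high in every list (93.3 in Chaf1a.166, 86.8 in Chaf1a.2122, 82.7 in Renilla), whereas the Dicer1 site is at 77.1 in Chaf1a.166 and 8.0 in Chaf1a.2122 and has no Renilla point.

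At Lin28a, on chromosome 4 with its start at 133574731, no list held a position within 200 kb, which was so for 1.61% of all genes. The first positions beyond it were found with every hairpin and closely aligned. Downstream they lay at 133372088 (Chaf1a.166), 133372127 (Chaf1a.2122) and 133372152 (Renilla), 202.6 kb from the start, at percentiles 23.7, 61.4 and 29.3. Upstream they lay at 133813776, 133813775 and 133813778 in the same order of lists, 239.0 kb from the start, at percentiles 88.5, 89.2 and 87.3. The stretch without a position around Lin28a was thus 441.7 kb in Chaf1a.166, 441.6 kb in Chaf1a.2122 and 441.6 kb in Renilla cells.

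The limit of 200 kb separates values that lie close together. L1td1 has a site just inside it, at 199.2 kb, and Lin28a one just outside, at 202.6 kb. The nearest position to Lin28a was farther than that of 95.5% of genes in the Chaf1a.166 list, 96.8% in the Chaf1a.2122 list and 95.8% in the Renilla list. The median distance over all genes was 28.0 kb in Chaf1a.166, 23.6 kb in Chaf1a.2122 and 27.9 kb in Renilla. Around Dicer1 the stretch without a position was 516.4 kb in Chaf1a.166 and 501.0 kb in Chaf1a.2122, against 730.9 kb in Renilla. Both Chaf1a stretches end at the single Dicer1 site 12.1 kb upstream, so most of their shorter length is that same site seen again. In Chaf1a.2122 this end rests on a position at percentile 8.0 of its list, with a lower bound of 1.01. The other end of the Chaf1a.2122 stretch, at 105501223, is a position of that list alone, at percentile 1.9. In Chaf1a.166 and Renilla that end lay at 105485868 and 105485863.

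In accessibility the 3 promoters differed by less than 0.32 on the log2 scale, the size used here to single out a region. Each had a smaller Sono-seq value in CAF-1 than in Renilla cells. The Lin28a promoter had 0.108 in CAF-1 and 0.128 in Renilla cells, a log2 ratio of -0.24. The Dicer1 promoter had 0.122 in CAF-1 and 0.137 in Renilla cells, a log2 ratio of -0.17. The L1td1 promoter had 0.137 in CAF-1 and 0.145 in Renilla cells, a log2 ratio of -0.07. The SD over all promoters was 0.23 with a median of -0.0093, so Lin28a, at -0.24, lay about 1 SD below that median and the other promoters lay nearer to it. Lower promoters were common, since 51.8% of genes had one.

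The order of levels was Lin28a, Dicer1 and L1td1 from low to high in both conditions, with mean levels at percentiles 16.6, 29.7 and 47.5 of all promoters. Without replicate values it is not known whether neighbours in this order differ. In the table as a whole, 6.68% of promoters were higher in CAF-1 by at least 0.32 (log2) and 8.98% lower by at least as much, and none of the 3 was among either.

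Enhancers gave a mixed picture, with 11 of 16 higher in CAF-1 cells, which is 68.8% against 55.3% of all enhancers. Past 0.32 (log2), 2 of the 16 were higher and 1 was lower, beside 10.3% and 6.58% of all enhancers. The median log2 ratio over the 16 was 0.072, and over all enhancers 0.028. L1td1 and Dicer1 combined a lower promoter with a higher median enhancer, as did 30.2% of all genes.

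Both L1td1 enhancers had larger values in CAF-1. The one 16.8 kb downstream of the start had 0.140 in CAF-1 and 0.115 in Renilla cells (log2 ratio 0.28), and the one at 20.6 kb had 0.111 in CAF-1 and 0.0995 in Renilla cells (0.15). Neither reached 0.32, and both belonged to the lower part of enhancer levels, at percentiles 32.8 and 9.3. They are assigned to no other gene.

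Of the 6 Dicer1 enhancers, all upstream and assigned to Dicer1 alone, 5 had larger values in CAF-1. The log2 ratio was 0.14 at 24.7 kb, 0.10 at 42.8 kb, 0.02 at 60.5 kb, 0.05 at 129.8 kb and -0.03 at 156.3 kb. The farthest, at 163.7 kb upstream and position 106153900, stood apart with 0.171 in CAF-1 and 0.124 in Renilla cells, a log2 ratio of 0.47 that exceeded those of 97.1% of enhancers. The enhancers at 60.5 and 129.8 kb had the highest levels of the set, at percentiles 93.5 and 96.3, with little difference between conditions. The enhancer nearest to the Dicer1 Sox2 site lay 12604 bp from it and had 0.165 in CAF-1 and 0.149 in Renilla cells.

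The 8 Lin28a enhancers split evenly, 4 higher and 4 lower in CAF-1, with a median log2 ratio of -0.06 (SD 0.29 over enhancers). The one nearest to the start, 5.2 kb upstream at 133579900, had the largest ratio of all 16, with 0.127 in CAF-1 and 0.0871 in Renilla cells (0.54, above 98.7% of enhancers). Its mean level was low, at percentile 10.5, and the promoter beside it had a ratio of the other sign. The enhancer 92.5 kb upstream, at 133667200, was the 1 region of the 3 genes that was lower by more than 0.32 (log2), with 0.143 in CAF-1 and 0.180 in Renilla cells (-0.33). The remaining 6 had log2 ratios of -0.29 at 189.2 kb, -0.17 at 105.2 kb, -0.13 at 80.1 kb, 0.01 at 87.8 kb, 0.14 at 60.1 kb and 0.22 at 174.6 kb.

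**Figure D3:**
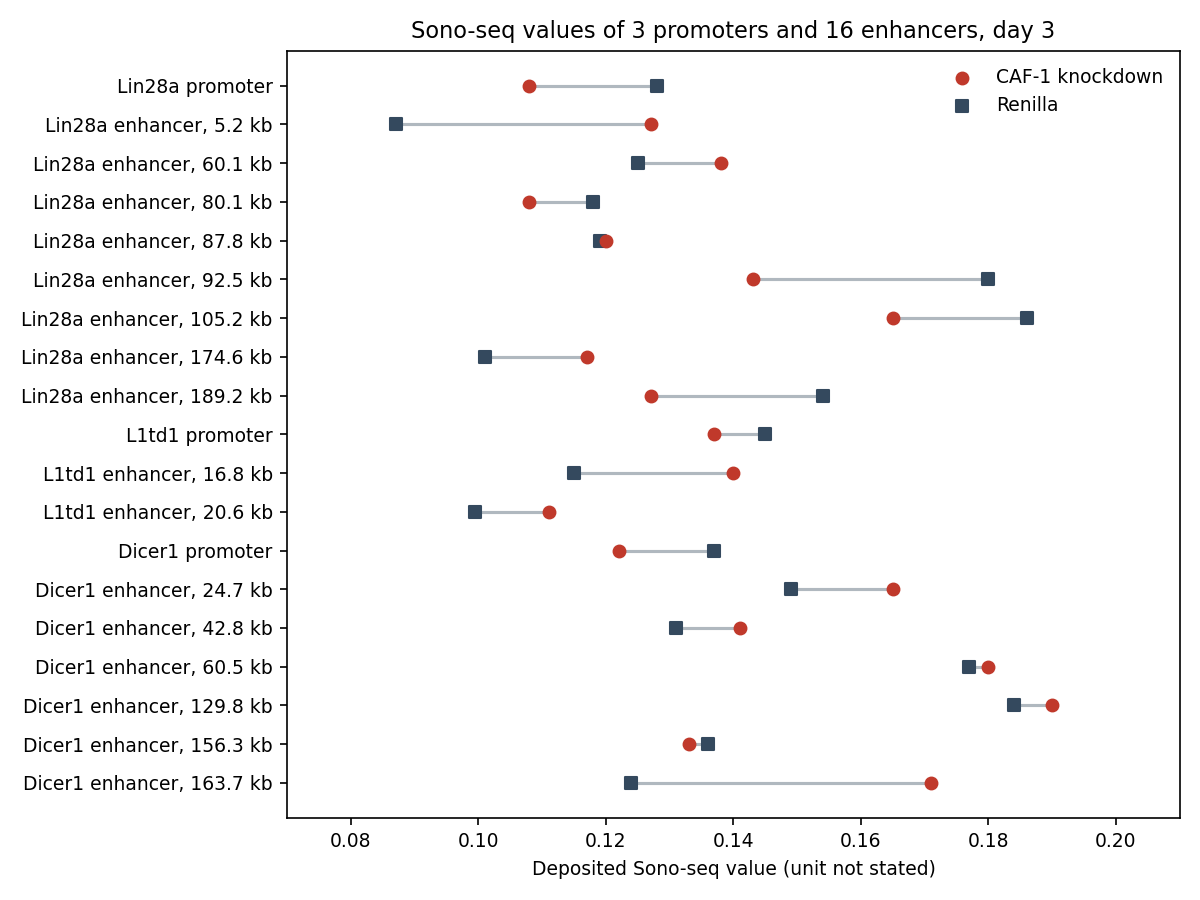
Deposited Sono-seq values (unit not stated) of the 3 promoters and 16 enhancers in CAF-1 knockdown (circles) and Renilla (squares) cells, with enhancers ordered by distance from the start site. All 3 promoters are lower in CAF-1, and the widest gaps toward higher CAF-1 values are the Lin28a enhancer at 5.2 kb (0.127 in CAF-1, 0.0871 in Renilla) and the Dicer1 enhancer at 163.7 kb (0.171 in CAF-1, 0.124 in Renilla).

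All 8 Lin28a enhancers are also assigned to other genes, each to 3 or 4 genes in all, so their values do not belong to Lin28a alone. Dhdds, a prenyltransferase gene whose start lies 18.0 kb from that of Lin28a, shares 3 of them, Sh3bgrl3 5 and Ccdc21 6. The promoters of these neighbours, and of Rps6ka1, which shares no Lin28a enhancer, had larger values in CAF-1, unlike that of Lin28a. The log2 ratio was 0.41 at Dhdds (0.153 in CAF-1, 0.115 in Renilla), 0.24 at Ccdc21, 0.21 at Rps6ka1, which encodes a ribosomal S6 kinase, and 0.15 at Sh3bgrl3. The Dhdds promoter alone was past 0.32. Usp1, the 1 listed neighbour of L1td1 within 200 kb, had -0.05, and Dicer1 had no listed neighbour in that range.

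**Figure D4:**
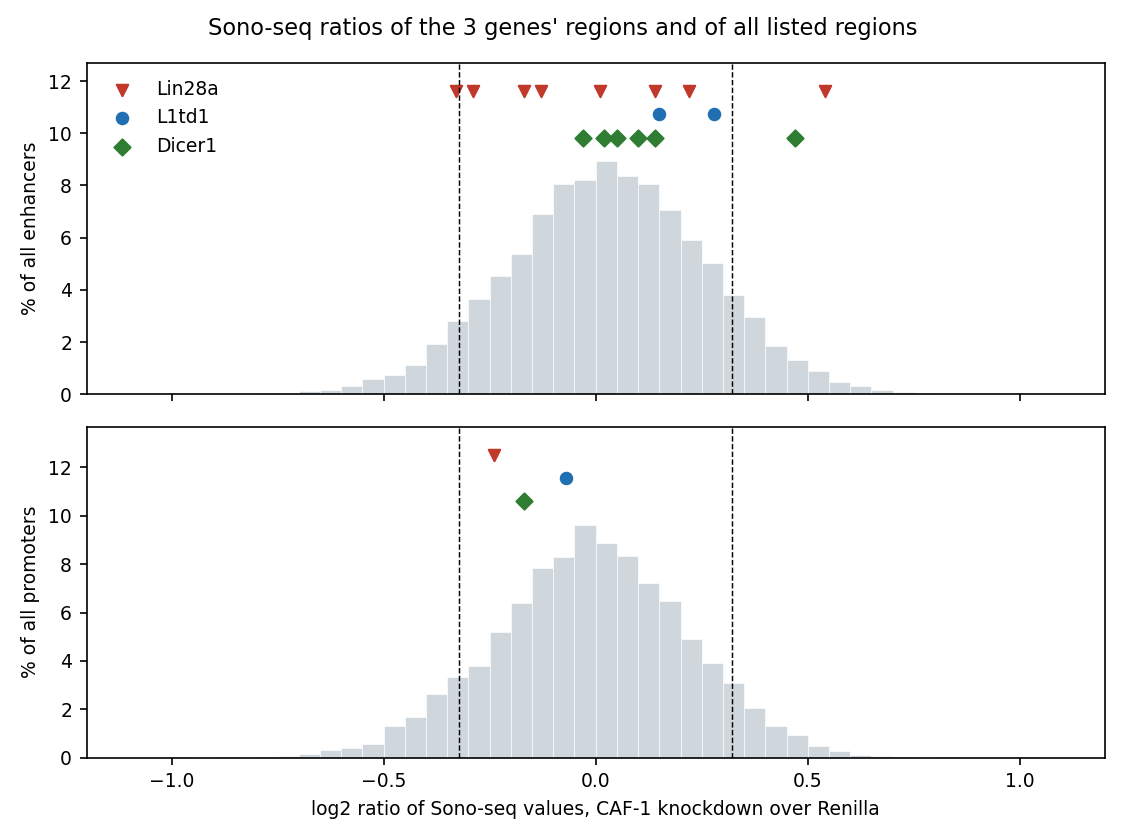
Distribution of the log2 ratio of Sono-seq values, CAF-1 over Renilla, for all 14265 enhancers (top) and all 5513 promoters (bottom) in bins of 0.05, with the regions of Lin28a, L1td1 and Dicer1 marked above the bars and limits of 0.32 in either direction dashed. The 3 promoters lie left of 0 and inside the limits. Of the enhancers, 2 lie right of the upper limit (0.54 and 0.47) and 1 lies left of the lower limit (-0.33).

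Few listed regions had Sox2 close by, at these genes and in the table as a whole. None of the 16 enhancers and none of the 3 promoters had a position of any list within 500 bp, or within 1000 bp. Over the whole table, 4.78% of enhancers and 13.0% of promoters had one within 500 bp. By list, the share of enhancers was 3.33% (Chaf1a.166), 3.65% (Chaf1a.2122) and 3.20% (Renilla), and that of promoters 7.40% (Chaf1a.166), 9.32% (Chaf1a.2122) and 7.62% (Renilla). With so few regions, counts of 0 are near this background. The L1td1 promoter was the closest, at 1473 bp (Chaf1a.166), 1525 bp (Chaf1a.2122) and 1485 bp (Renilla).

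Genes most like each member were sought among those with the same lists within 10 kb, by Euclidean distance over 4 log2 values, namely CAF-1 and Renilla at the promoter and the mean over enhancers. For Lin28a these were Gpr19, Arl15 and Mapk1ip1l, at distances of 0.094, 0.098 and 0.109 among 3038 genes with a median of 0.607. For L1td1 they were Ap3s1, Atg12 and Gdi2, at 0.058, 0.082 and 0.130 among 1062 genes with a median of 0.580. For Dicer1 they were Gga1, Afg3l1 and Dmc1, at 0.049, 0.072 and 0.082 among 3038 genes with a median of 0.570. Of these genes, Ap3s1 and Atg12 are close neighbours on chromosome 18, with starts at 46901570 and 46901233, so their likenesses are not separate. Each likeness rests on 2 conditions and is a description of these numbers.

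Other genes were taken from a list chosen with earlier results of these data known, so its counts are a description. The list held 49 current and older symbols, of which 20 are in the table. Of these, 5 belong to small RNA processing, 5 are effectors of silencing, and 10 belong to the let-7 axis, which includes let-7 targets such as Mycn, Nras and Hmga1 that are not themselves part of small RNA production. They had Sox2 near the start site in 12 of 20 cases for Chaf1a.166 (60.0%, against 28.2% of all genes), 7 for Chaf1a.2122 (35.0% against 33.1%) and 9 for Renilla (45.0% against 29.1%), within 10 kb. Within 2 kb the counts were 9 (Chaf1a.166), 6 (Chaf1a.2122) and 7 (Renilla), beside 13.6%, 16.6% and 13.9% of all genes in the same order. Within 50 kb they were 17, 14 and 17, beside 65.7%, 70.4% and 66.4%. No gene of the list lacked a position within 200 kb, near the background, since 1.61% of all genes did, Lin28a among them. Within 200 kb, 19 of 20 had a site of all 3 lists, as 88.7% of all genes did. In 5 of 20 cases the Chaf1a.166 list alone held a position within 10 kb, against 2.95% of all genes. This count depends on the distance chosen: in 2 of the 5 the other lists had positions just beyond 10 kb, as at Ddx17, at 10390 bp (Chaf1a.2122) and 10489 bp (Renilla). The opposite also occurred, since Nras had a Renilla position alone within 10 kb, at 119 bp.

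Lin28b, the paralogue of Lin28a that also blocks let-7, had Sox2 at its start site in every list. The position lay at 387 bp (Chaf1a.166), 367 bp (Chaf1a.2122) and 357 bp (Renilla), where Lin28a had none within 200 kb. Its promoter had 0.0899 in CAF-1 and 0.0829 in Renilla cells, a log2 ratio of 0.12. Igf2bp3, an RNA-binding protein whose transcript is a let-7 target, had positions in every list at 4370, 4439 and 4431 bp in the same order, and its promoter had a log2 ratio of 0.37 (0.101 in CAF-1, 0.0785 in Renilla). Trim71, a let-7 target that encodes a ubiquitin ligase of ES cells, had a Chaf1a.166 position at 7050 bp, and its nearest Chaf1a.2122 and Renilla positions were 20190 and 20199 bp away. Zcchc6, a uridylyltransferase that acts on let-7 precursors, had a Chaf1a.166 position 9 bp from its start, and the nearest in the other lists were 17889 bp (Chaf1a.2122) and 103753 bp (Renilla) away.

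Among the processing genes, the RNA helicase Ddx5 of the Drosha complex had positions in every list, at 781 bp (Chaf1a.166), 720 bp (Chaf1a.2122) and 752 bp (Renilla). Xpo5, which exports precursor hairpins from the nucleus, had them at 1377 bp (Chaf1a.2122) and 1457 bp (Renilla), and the nearest Chaf1a.166 position was 63612 bp away. Of the effectors, Eif2c1, an older symbol of the Argonaute gene Ago1, had positions at 266 bp (Chaf1a.166), 244 bp (Chaf1a.2122) and 2437 bp (Renilla). Over the list, 10 promoters were higher and 10 lower in CAF-1, with a median log2 ratio of 0.021. Past 0.32, 2 were higher, Tnrc6c at 0.38 and Igf2bp3 at 0.37, and 1 was lower, Tnrc6b at -0.36. Over all promoters these shares were 6.68% and 8.98%, so 2 and 1 of 20 are near the background. Tnrc6b and Tnrc6c encode partners of Argonaute in silencing.

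One let-7 gene was in the table and was added after its values were seen. The mature product of Mirlet7i, mmu-let-7i-5p (RefSeq, GRCm38.p6, chr10:122985698-122985719, minus strand), is shown because let-7 is the microRNA that Lin28a blocks and Dicer1 cuts, with its seed, bases 2 to 8, in capitals.
mmu-let-7i-5p: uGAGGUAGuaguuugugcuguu

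The Mirlet7i promoter had 0.120 in CAF-1 and 0.132 in Renilla cells and a log2 ratio of -0.14, which lies between those of Dicer1 (-0.17) and L1td1 (-0.07). Its nearest Sox2 positions were 13806 bp (Chaf1a.166), 19033 bp (Chaf1a.2122) and 19033 bp (Renilla) from the listed start.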

How the data were processed

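Sox2 ChIP-seq (6 of 61 samples) and Sono-seq (6 samples) of day 3 were used. The submitters' processing notes give mm9 as the build and list Bowtie and BWA 0.7.8; what each did, and the position caller, are not given in the sources used. The deposited lists give, per the file headers, for each Sox2 position a score, an E-value (neither rescaled here), a false discovery rate (a q-value, at most 0.00064 in any list) and an enrichment ratio over input with its lower bound. The deposited Sono-seq values, 1 per condition and region, were treated as a score of unstated unit; the authors' way of merging 3 libraries is not stated. Read depth is unknown.

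With Python 3.11.15, pandas 2.3.3 and scipy 1.17.1, log2 ratios were computed without a pseudocount, and Sox2 positions within 200 bp were joined into sites. Counts per gene use the first listed start site. Joining and counting were tested on simulated data. In 136 rows, symbols turned into dates were restored through RefSeq transcripts. Strands come from RefSeq (GRCm38.p6). Members, lists and tests were chosen with earlier results of these data known. Genes named are the members, their listed neighbours within 200 kb, members of the small RNA list, and the 3 genes most like each member.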

Additional observations from a re-analysis of the deposited data

How the results depend on the processing

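No paired analysis was possible because each Sox2 list comes from 1 immunoprecipitate and the 3 Sono-seq libraries of a condition share 1 deposited value, which also kept single libraries from being left out. Of 69 recomputed values, 62 stayed within 1.5 times the count or within 1 SD over all regions (0.23), that SD standing in for the unknown replicate spread. All 21 recomputed Sono-seq ratios were among them, but a pseudocount cannot turn their sign and the scalings moved all regions alike, so this says little of their stability. The median over Lin28a enhancers, -0.06, was -0.00 as a mean. The counts of 0 at Lin28a could not change under the alternatives run, since no position lay within 200 kb. Nor could the 0 sites of all 3 lists at Dicer1, where no Renilla position lay within 200 kb. The 0 regions with Sox2 within 250 bp likewise follow from the 0 within 500 bp. Many of the 62 were thus fixed beforehand, so their number says little of stability. An enrichment lower bound of at least 2 left 1 site of all 3 lists at L1td1, where 4 stood before, and 0 sites of both Chaf1a lists at Dicer1. Lists of equal length also left 0 at Dicer1, because the Chaf1a.2122 position ranks below 15888. The window of 100 kb left 1 site of all 3 lists and 0 of both Chaf1a lists at L1td1. Within 50 kb the small RNA list had 14 genes near Chaf1a.2122 and 17 near Renilla, when 70.4% and 66.4% of all genes were near. Absent replicates and unknown read depth limit every comparison.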
